A study of Oryza sativa Indica Group with 12 samples.

Results

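Rice seedlings of the indica cultivar IR64 were compared between 2 ages of growth with potassium. The 3 KP arrays hold seedlings that were 10 days old and had spent 5 days on nutrient solution with 0.409 mM K2SO4 after transfer, and the 3 0h arrays hold seedlings that were 5 days old and were taken from normal solution before any transfer. These are 6 of the 12 arrays of a study of potassium deprivation, chosen by their titles, and 57258 of the 57381 probe sets on each array were tested once the 123 control probe sets were set aside. The other 6 arrays hold 10-day-old seedlings after 5 days without potassium (KM) and after 6 h of resupply with 0.409 mM K2SO4 (KR). Each group has 3 arrays, named biological replicates by the submitters, each of RNA from whole hydroponic seedlings without the seed, and the number of plants per sample is not given in the sources used here. For the 0h arrays the title and the source name place the plants before transfer while a treatment tag gives the potassium-deficient medium, and the title was followed. KP and 0h differ in age, in the 5 days that followed transfer and in the day of harvest, and these cannot be told apart. In whole seedlings fewer cells of a type and less RNA per cell cannot be told apart either.

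A germinated rice seedling first lives on the reserves of its seed. Cells divide in the shoot and root meristems and at the base of young leaves, and they stop dividing as they expand and mature. As the reserves run down, the roots take up mineral ions and water from the solution and mature leaves supply sugar. Copying of DNA needs the origin recognition complex (ORC), which marks the starting points, the MCM helicase, which unwinds the strands, and polymerases with their clamp (PCNA) and clamp loader (RFC). Potassium enters root cells through channels and through transporters of the HAK family, and calcium sensors (CBL) with their partner kinases (CIPK) control some of these proteins.

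The control probe sets on the arrays moved with the groups, and this stands beside every result given here. Probe sets for the 3′ end of GAPDH read 12.81 ± 0.07 in KP and 12.96 ± 0.05 in 0h on the log2 scale (SD, n = 3 arrays each), but those for its 5′ end read 10.80 ± 0.18 in KP and 7.38 ± 0.36 in 0h. The 3′ minus 5′ difference was thus 2.01 ± 0.21 in KP and 5.57 ± 0.40 in 0h. For actin it was 2.44 ± 0.22 in KP and 4.94 ± 0.47 in 0h, for ubiquitin -0.08 ± 0.10 in KP and 1.32 ± 0.14 in 0h, and for cyclophilin 1.36 ± 0.09 in KP and 2.32 ± 0.08 in 0h. The KP and 0h arrays did not overlap in any of these 4 differences, and the KM and KR arrays lay close to KP (GAPDH 1.65 and 2.11). The spiked bacterial dap transcript had the opposite order, with 3.08 ± 0.30 in KP and 2.09 ± 0.19 in 0h. RNA or labelling that differed in length between the 0h arrays and the others cannot be told apart from age here. The mean of 12 probe sets for the spiked transcripts dap, lys, phe and thr was 5.48 ± 0.09 in KP and 6.22 ± 0.11 in 0h. No scaling used these spikes. The mean of the 9 hybridization controls was 10.53 ± 0.19 in KP and 10.96 ± 0.10 in 0h, a smaller difference. The deposited values leave the median log2 change of all probe sets at -0.01. When each array was shifted so that the hybridization controls were equal, a scaling chosen after the data had been seen, that median became 0.42. Every log2 change below is relative to a median near 0.

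**Figure D1:**
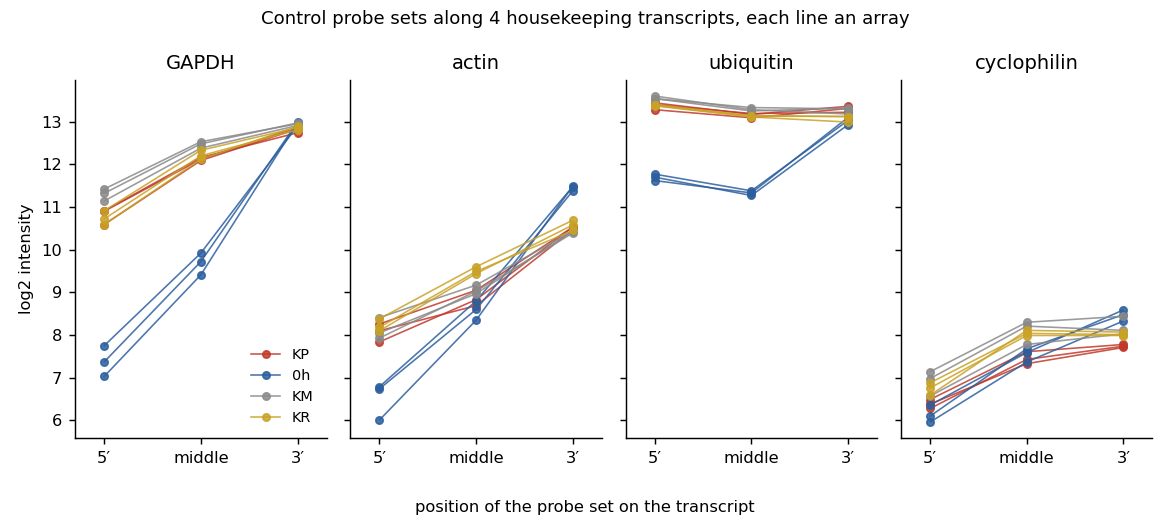
Log2 intensity of the control probe sets for the 5′ end, the middle and the 3′ end of GAPDH, actin, ubiquitin and cyclophilin, with 1 line for each of the 12 arrays coloured by group (KP, 0h, KM, KR). The 3 0h lines drop toward the 5′ end of GAPDH, to 7.38 on average, where the KP lines average 10.80.

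By limma, 3362 probe sets were higher in KP (5.87% of all tested) and 3270 were lower (5.71%), taking a probe set as called when its adjusted p was under 0.05 and it differed by 2-fold or more. The rises were larger than the falls in their upper range. Of the higher probe sets 1139 rose at least 4-fold and 142 at least 16-fold, while 407 of the lower ones fell at least 4-fold and 10 at least 16-fold. In 740 of the higher probe sets all 3 0h arrays were under log2 4, a level near background on these arrays, and in 537 of the lower ones all 3 KP arrays were. The sizes of these changes are limited by the background. KP and 0h arrays did not overlap in 21256 probe sets, 37.1% of those tested, and in 3353 of the higher and 3264 of the lower calls. With the hybridization controls made equal the split became 5568 higher and 1503 lower, so that 78.7% of calls were rises instead of 50.7%.

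**Figure D2:**
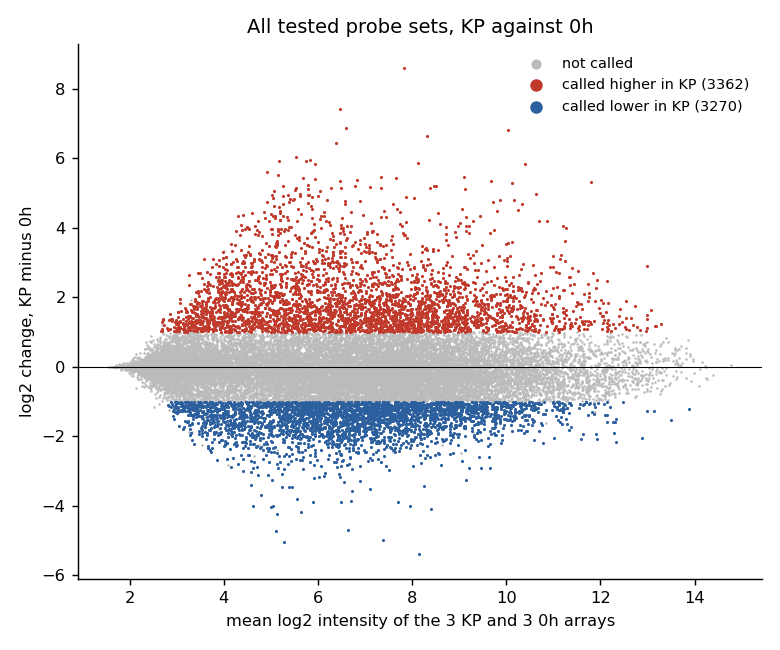
Log2 change of each of the 57258 tested probe sets in KP against 0h (vertical axis) by its mean log2 intensity over the 6 arrays (horizontal axis), with 3362 called higher and 3270 called lower. The rises reach farther from 0 than the falls, with 1139 and 407 past 4-fold.

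The calls also differed with the length of the gene. Genes with a mean above log2 6 were put in 5 groups by their span on the chromosome in the RefSeq annotation. In the shortest group, 2234 genes of 121 to 2134 bases, 25.2% were higher in KP and 10.1% lower, with a median log2 change of 0.15. In the longest group, 2233 genes of 5800 to 43545 bases, 6.81% were higher and 16.6% lower, with a median of -0.36. The part of RNA length in this pattern was not tested beyond the controls above. Where a gene had more than 1 bright probe set, its probe sets did not always move together. Of 121 such genes whose brightest probe set was higher, 87 had every other bright probe set called higher too, and of 104 whose brightest was lower, 54 had every other one called lower.

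Each gene below is represented by its brightest probe set. Over all 2457 genes with a name, 328 (13.3%) were higher in KP and 357 (14.5%) lower, and these shares are the background for the gene groups. Of the 55 groups 15 were put together after the values had been seen, so their shares and their place among the groups are a description that follows from that choice. These are actin and tubulin, beta-glucosidases, the Casparian strip family, chloroplast build-up, DNA and histone modification, germin-like proteins and metallothioneins, growth-regulating factors, kinesins, magnesium transport, meiosis and recombination, phosphate sensing, proteasome and ubiquitin, ribosomal proteins, SPL and YABBY factors, and sucrose metabolism. The other 40 groups were written with earlier results of these data known, so their shares are a description too.

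**Figure D3:**
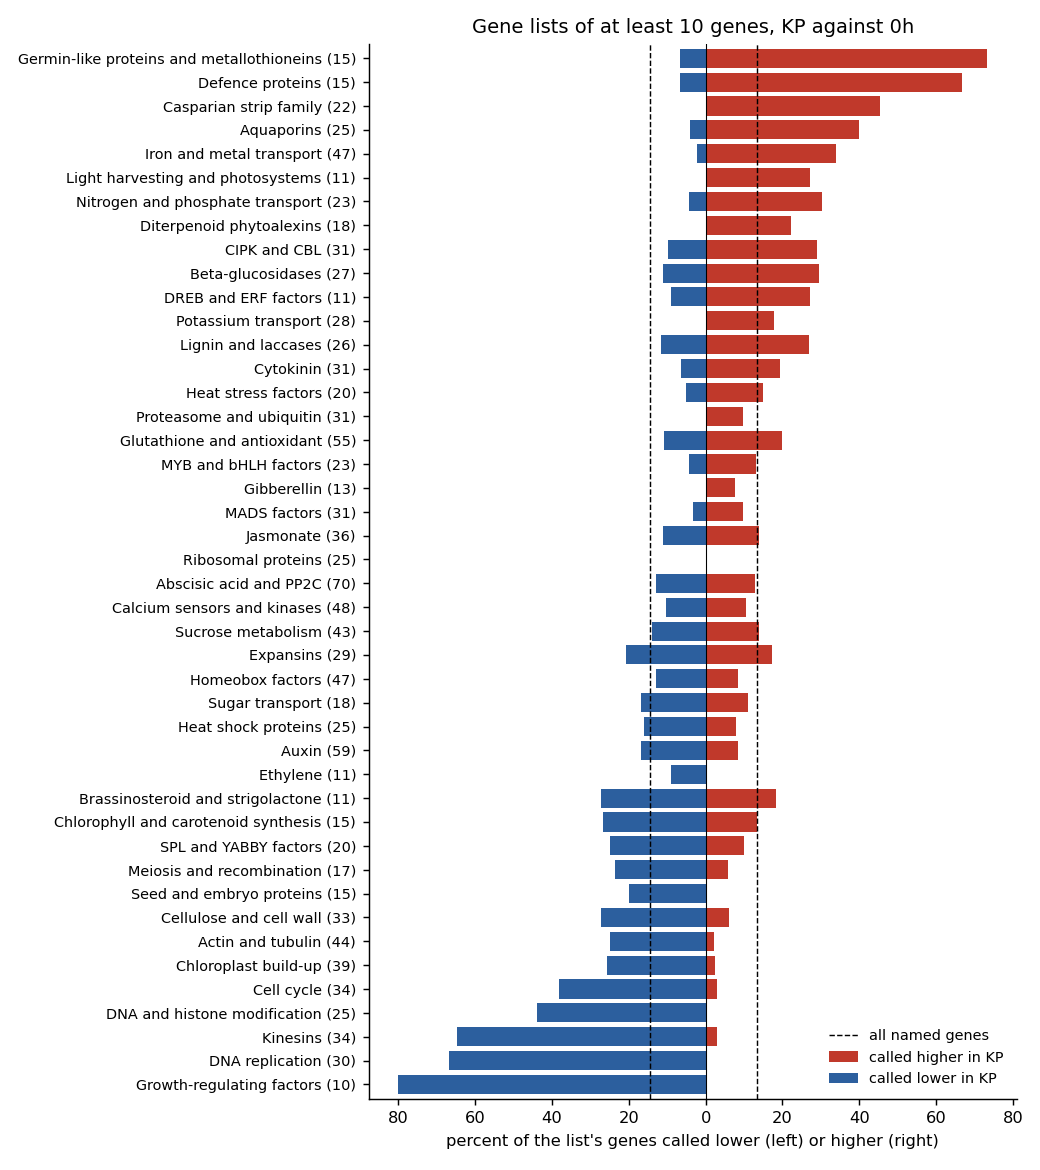
Percent of the genes of each list called higher (right, red) and lower (left, blue) in KP against 0h, for the 44 lists of at least 10 genes, with the number of genes in parentheses and dashed lines at the shares over all named genes (13.3% higher, 14.5% lower). DNA replication lies far to the left and defence proteins far to the right, as do kinesins and growth-regulating factors (left) and germin-like proteins with metallothioneins (right), 3 lists made after the values had been seen. The lists made first were written with earlier results of these data known.

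Most genes that copy DNA were lower in the older seedlings. Of 30 DNA replication genes 20 were lower in KP, none was higher and 10 were not called, with a median log2 change of -1.23, against 14.5% lower among all named genes. Their median span is 4265 bases, and in the range of 4239 to 5799 bases 16.6% of bright genes were lower. ORC1, the largest subunit of the origin recognition complex, read 4.59, 4.80 and 4.83 in the 3 KP arrays and 6.95, 7.10 and 7.31 in the 3 0h arrays. Every KP array lay far below every 0h array (log2 change -2.38 ± 0.12, SE, adjusted p = 8.92e-07). ORC3 (-1.81 ± 0.18), ORC4 (-1.07 ± 0.15) and ORC5 (-1.20 ± 0.12) were lower too (ORC4 was at -0.58 and not called on a dimmer probe set), and ORC2 was at 0.01 ± 0.13 and not called. The KP arrays of ORC5 were all near background.

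The 6 subunits of the replicative helicase, MCM2 to MCM7, fell by much the same amount. MCM3 read 6.60, 6.95 and 6.83 in KP and 9.26, 9.11 and 9.0 in 0h, and its change of -2.33 ± 0.09 was the largest of the 6. MCM2 had the smallest at -1.92 ± 0.14, and MCM4 (-2.25), MCM5 (-2.08), MCM6 (-2.09) and MCM7 (-2.15) lay between. None of the 6 had overlapping arrays. MCM9, a relative of the helicase with roles in repair in animals, was lower near background (-1.20 ± 0.12), and MCM8 was at background in all 6 arrays.

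POLD1, the catalytic subunit of DNA polymerase delta, read 4.78, 4.73 and 4.62 in KP and 7.08, 7.04 and 6.88 in 0h (-2.29 ± 0.09, adjusted p = 3.3e-07). Its partner POLD2 changed by -1.64 ± 0.18. PCNA, the sliding clamp, was lower as well, with 8.16, 8.66 and 8.79 in KP and 9.85, 9.86 and 9.63 in 0h (-1.24 ± 0.17). Of the clamp loader, RFC1 (-1.22 ± 0.06) and RFC4 (-1.46 ± 0.12) were lower, while RFC2 (-0.64), RFC3 (-0.33) and RFC5 (-0.94) were not called. The single-strand binding protein RPA split by gene copy. RPA1B (-2.31 ± 0.17) and RPA32 (-1.63 ± 0.12) were lower, whereas RPA1A (-0.56 ± 0.10) and RPA32-2 (-0.25 ± 0.08) were not called. The flap endonucleases FEN1A (-0.53) and FEN1B (-0.47), which trim the ends of new fragments, were not called either. With the hybridization controls equal 14 of the 20 calls stood and the median was -0.80, and MCM9, ORC4, ORC5, PCNA, RFC1 and RPA32-3 were no longer called, ORC4 also without 0h array 1 (-0.95).

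Among 34 cell cycle genes 13 were lower and 1 was higher in KP, with a median of -0.71. RBR1, the plant counterpart of the retinoblastoma protein that holds back entry into DNA synthesis, read 4.32, 4.60 and 4.65 in KP and 6.97, 7.0 and 6.77 in 0h (-2.39 ± 0.19). The A-type cyclins CYCA2-1 (-2.38 ± 0.12) and CYCA3-2 (-2.40 ± 0.21) fell as much. The mitotic cyclins CYCB1-1 (-1.58 ± 0.12), CYCB2-1 (-1.12 ± 0.10) and CYCB2-2 (-1.64 ± 0.12) and the mitotic kinase CDKB2-1 (-1.63 ± 0.11) were lower as well. CDKA-1, the kinase that acts through the whole cycle, read 8.69, 8.80 and 8.92 in KP and 9.31, 8.81 and 9.16 in 0h, and these arrays overlapped (-0.29 ± 0.12, adjusted p = 0.142). The other kinase classes CDKC-1 (-0.02), CDKD-1 (-0.57), CDKE-1 (0.65), CDKF-1 (0.99) and CDKG-1 (-0.21) were not called. D-type cyclins, which act at the start of the cycle, were mixed. CYCD2-2 (-1.72 ± 0.13), CYCD4-1 (-1.03 ± 0.14), CYCD4-2 (-1.19 ± 0.18) and CYCD6-1 (-1.28 ± 0.19) were lower, CYCD5-1 was higher (1.12 ± 0.17), and CYCD3-1, CYCD3-2, CYCD5-2 and CYCD5-3 were not called, though a dimmer probe set of CYCD5-2 was lower (-1.10). The cyclin-dependent kinase inhibitors KRP5 (-1.13) and KRP6 (-1.15) were lower and KRP1 (-0.15) and KRP4 (0.67) were not called. With the controls equal 7 genes were lower and 4 higher, and CYCB2-1, CYCD4-1, CYCD4-2, CYCD6-1, KRP5 and KRP6 lost the call. CYCD4-1 also lost it without KP array 1 (the smallest change with 1 array left out was -0.94), as it did without 0h array 1 or 2, and KRP6 did without KP array 1 (-0.94).

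Kinesins, motor proteins that move along microtubules and build the spindle and the new cell wall between daughter cells, had 22 of 34 genes lower and 1 higher, with a median of -1.34 and a median span of 6509 bases. KIN12C read 5.63, 6.05 and 6.11 in KP and 8.52, 8.40 and 8.36 in 0h (-2.49 ± 0.15), and KIN14N read 7.05, 7.0 and 7.18 in KP and 9.15, 9.13 and 9.51 in 0h (-2.18 ± 0.11). No KP array of either reached a 0h array. KIN14E (-2.39 ± 0.14) and KIN14I (-1.71 ± 0.08) changed alike. Of 44 genes of actin and tubulin and their partners 11 were lower and 1 was higher, with a median of -0.47. TUB2, a beta tubulin and a bright gene, read 9.71, 9.91 and 9.76 in KP and 11.37, 11.26 and 11.28 in 0h (-1.51 ± 0.06). The microtubule-associated MAP70.2 fell by 1.89 ± 0.12, and MAP70.1 just missed 2-fold at -0.99 ± 0.06. With the controls equal 16 kinesins were still lower and 1 higher, and the actin and tubulin genes split into 4 lower and 6 higher.

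**Figure D4:**
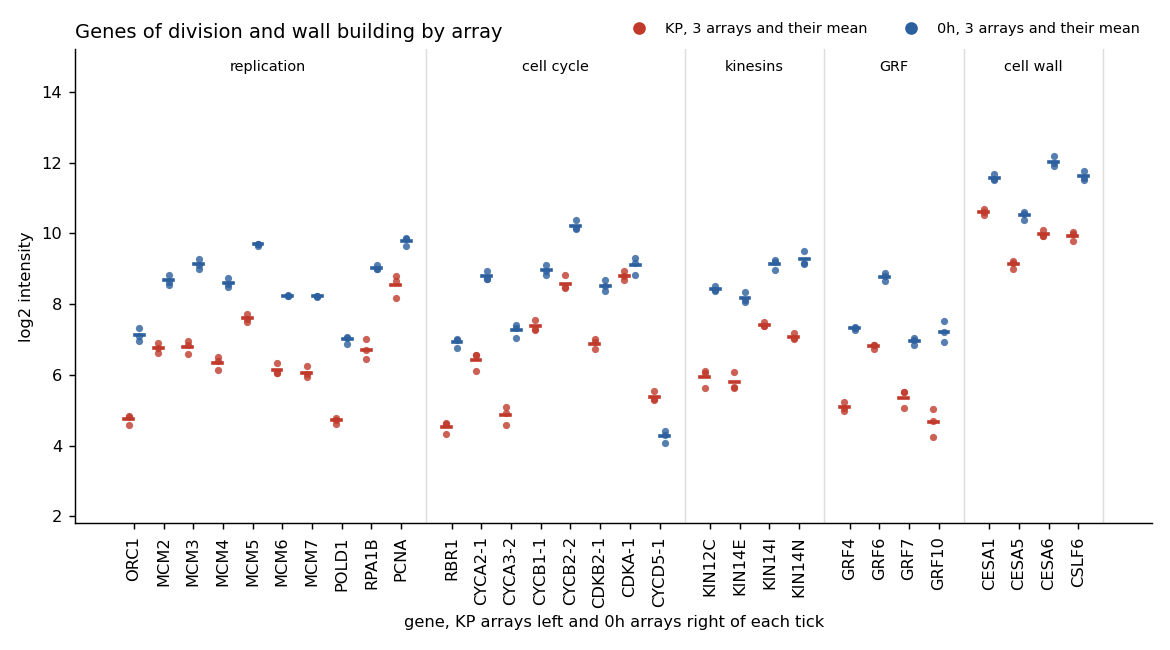
Log2 intensity in the 3 KP arrays (red, left of each tick) and the 3 0h arrays (blue, right), with short lines at the means, for genes of DNA replication, the cell cycle, kinesins, growth-regulating factors (GRF) and cell wall synthesis. All except CDKA-1 and CYCD5-1 sit lower in KP without overlap, for example MCM3 at 6.60 to 6.95 in KP and 9.0 to 9.26 in 0h.

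Growth-regulating factors are transcription factors that promote cell proliferation in young leaves, and they were made a group after their values had been seen. In KP 8 of 10 were lower, none higher, and the median was -1.67. GRF10 read 4.70, 4.24 and 5.04 in KP and 7.20, 7.51 and 6.94 in 0h (-2.56 ± 0.25). GRF4 (-2.23 ± 0.12), GRF6 (-1.96 ± 0.06) and GRF7 (-1.60 ± 0.11) were lower without overlap of arrays, and with the controls equal 7 of the 10 were lower. Of 20 SPL and YABBY factors, which act in the timing of growth phases and in the shaping of leaves, 5 were lower and 2 higher. YAB7 read 3.79, 3.83 and 3.72 in KP and 6.05, 6.21 and 6.45 in 0h (-2.45 ± 0.13), and YAB3 changed by -2.32 ± 0.15. The KP arrays of YAB7 were all near background, which limits the size of its fall. A gene named SPL11 on chromosome 12 rose instead, with 9.85, 9.92 and 10.11 in KP and 8.24, 8.17 and 8.14 in 0h (1.77 ± 0.08). It counts among the 2 higher by its symbol alone, and whether it is a factor of this family was not checked. OSH1, which marks the shoot meristem, was at -0.87 ± 0.13, under 2-fold, though every KP array was below every 0h array.

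Proteins that mark DNA and package it were lower in 11 of 25 cases and higher in none (median -0.72). CMT3, which methylates cytosine in CHG sequences, read 5.13, 5.42 and 5.20 in KP and 7.89, 7.66 and 7.70 in 0h (-2.50 ± 0.16). MET1, which keeps CG methylation through DNA copying, changed by -2.13 ± 0.13 for its gene LOC4342575, and SSRP1-B, a subunit of a histone chaperone, by -2.45 ± 0.21. The KP mean of SSRP1-B was 3.84, near background. With the controls equal 6 of the 25 were lower and 1 was higher. Of 17 meiosis and recombination genes 4 were lower and 1 was higher, but 8 of the 17 were near background on all arrays. RPA1C, which is in this list and in that of DNA replication, changed by -1.67 ± 0.13 and MSH5 by -2.07 ± 0.20. MSH5 was near background in every KP array. Of the 5 histone genes with a name, all H2B, H2B.10 alone was lower (-1.12 ± 0.16), a call that was lost without KP array 1 or 0h array 1 (-0.97 without the second of these).

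Cytosolic ribosomal proteins moved by less. None of 25 was called, although the brightest probe sets of all 25 had a negative change, from -0.75 to -0.10 with a median of -0.47. RPL9 read 12.82, 12.78 and 12.78 in KP and 13.21, 13.23 and 13.21 in 0h (-0.42 ± 0.02, adjusted p = 3.8e-07). RPS4 had the largest change at -0.75 ± 0.04, but its other bright probe set was at 0.08, and RPS21 gave -0.35 and 0.19 on its bright probe sets. With the controls equal their median was -0.05. Of 31 proteasome and ubiquitin genes 3 were higher and none was lower. NEDD8 (LOC4347085), a ubiquitin-like protein that is attached to cullins, rose by 1.46 ± 0.08, while UBQ2 was at -0.76 ± 0.04 and not called.

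Cell wall genes moved in both directions. Of 33 genes of cellulose and other wall polymers 9 were lower and 2 higher (median -0.53, and 5 lower with 2 higher when the controls were equal). CESA6, a subunit of cellulose synthase, read 9.92, 9.92 and 10.10 in KP and 11.91, 11.99 and 12.18 in 0h (-2.05 ± 0.09). CSLF6, which makes the mixed-linkage glucan of grass walls, read 9.98, 9.77 and 10.04 in KP and 11.77, 11.56 and 11.50 in 0h (-1.68 ± 0.09). All 3 KP arrays of each lay below all 3 0h arrays. CESA5 fell by 1.37 ± 0.09, a call that was lost with the controls equal (-0.95), and CESA1 was not called at -0.98 ± 0.06. Of 29 expansins, which loosen walls, 5 were higher and 6 lower (17.2% and 20.7%, against 13.3% and 14.5% over all named genes). EXPB2 read 8.12, 8.40 and 8.72 in KP and 4.48, 4.78 and 5.04 in 0h (3.64 ± 0.20), and EXP6 read 6.92, 7.48 and 6.75 in KP and 8.80, 8.80 and 8.46 in 0h (-1.63 ± 0.19). Lignin genes and laccases had 7 higher and 3 lower of 26. CAD1, a cinnamyl alcohol dehydrogenase of lignin synthesis, rose by 1.62 ± 0.07, and the laccase LAC4 fell by 1.63 ± 0.13.

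Hormone genes were called in both directions, as named genes were in general (13.3% higher and 14.5% lower). Brassinosteroids are growth-promoting steroids, and of 11 brassinosteroid and strigolactone genes 3 were lower and 2 higher (27.3% and 18.2%). The receptor BRI1 (-1.08 ± 0.13), the transcription factor BZR1 (-1.18 ± 0.11) and the biosynthetic enzyme CPD2 (-1.61 ± 0.15) were lower, and D14, the strigolactone receptor, was higher (1.16 ± 0.09). CYP734A4, an enzyme that inactivates brassinosteroids in rice, was among the largest falls, with 5.19, 4.95 and 4.54 in KP and 7.30, 7.46 and 7.86 in 0h (-2.65 ± 0.21). The calls of BRI1 and BZR1 were lost with the controls equal (-0.65 and -0.76), and that of BRI1 also without 0h array 1.

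Of 59 auxin genes 10 were lower and 5 higher (16.9% and 8.47%, against 14.5% and 13.3% over all named genes). Their median was -0.09, and with the controls equal 6 were lower and 9 higher with a median of 0.34. GH3-8, which joins auxin to amino acids and so removes it in rice, read 5.25, 5.45 and 5.07 in KP and 7.87, 7.86 and 8.83 in 0h (-2.93 ± 0.27). SAUR39, which in rice lowers auxin level and transport, read 7.34, 7.28 and 7.68 in KP and 2.43, 2.83 and 3.62 in 0h (4.47 ± 0.34). Its 0h arrays were all near background. The auxin response factors ARF12 (-1.59 ± 0.07) and ARF17 (-1.43 ± 0.09) were lower. Of 31 cytokinin genes 6 were higher and 2 lower (19.4% and 6.45%). RR9, a response regulator whose transcript cytokinin raises, read 10.17, 9.69 and 9.32 in KP and 6.27, 5.79 and 5.76 in 0h (3.79 ± 0.23), and LOG, which releases active cytokinin, rose by 1.68 ± 0.13.

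The 70 abscisic acid and PP2C genes had 9 higher and 9 lower (12.9% each, near the shares over all named genes). SAPK3, a kinase of the family that abscisic acid and osmotic stress activate, read 8.67, 8.79 and 8.94 in KP and 5.55, 5.34 and 5.24 in 0h (3.42 ± 0.11), and SAPK9 rose by 2.45 ± 0.10. PP2C12, a phosphatase of the family that can restrain such kinases, read 6.45, 6.40 and 6.40 in KP and 4.87, 4.76 and 4.81 in 0h. Of 36 jasmonate genes 5 were higher and 4 lower (13.9% and 11.1%, also near those shares). OPR-1, an oxophytodienoate reductase family member, read 10.60, 10.95 and 10.62 in KP and 6.14, 6.09 and 7.89 in 0h (4.01 ± 0.41), with 0h array 3 above the other 0h arrays and still below KP. Its dimmer probe set was not called (0.64 ± 0.69, with means of 4.94 in KP and 4.30 in 0h). None of 13 gibberellin genes was lower and 1 was higher, and the receptor GID1 (-0.70 ± 0.11) and the repressor SLR1 (-0.65 ± 0.14) were not called. Of 11 ethylene genes ACO1 alone was called, lower near background (-1.35 ± 0.07) and no longer so with the controls equal (-0.92).

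Among the 15 largest rises of named genes 4 were of metallothioneins and a germin-like protein. Of 15 germin-like proteins and metallothioneins 11 were higher and 1 lower, against 13.3% higher among named genes, and the median log2 change was 3.19, in a group made after these values had been seen. Metallothioneins are small cysteine-rich proteins that bind metal ions. MT4A read 11.99, 11.79 and 11.70 in KP and 6.05, 7.04 and 6.02 in 0h (5.45 ± 0.30, adjusted p = 1.48e-06). MT4C read 12.45, 12.62 and 13.20 in KP and 7.12, 6.98 and 8.31 in 0h (5.29 ± 0.39). MT1A, the brightest of them, read 13.25, 13.17 and 13.25 in KP and 9.05, 9.13 and 9.37 in 0h (4.04 ± 0.11). In all 3 genes every KP array was above every 0h array by more than 3 log2 units. For MT4A and MT4C a lack of overlap was required for a place among the 15 largest rises. MT2A rose by 4.78 ± 0.14 on its brightest probe set, while its other 3 probe sets, 2 of them near background, gave 0.02, 0.98 and 0.04 and were not called. GER1, a germin-like protein of the cell wall, read 11.43, 11.36 and 12.29 in KP and 6.52, 6.57 and 6.63 in 0h (5.12 ± 0.31), and GER6 rose by 4.35 ± 0.23. The genes of this group span a median of 1139 bases on the chromosome, which is in the range of the shortest genes, where 25.2% were higher.

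The other genes with the largest rises came from a wide range of functions. The jacalin-like lectin gene LOC_Os12g14440 had the largest, with 9.62, 8.08 and 8.39 in KP and 2.63, 2.67 and 3.03 in 0h (5.92 ± 0.68), and it averaged 2.66 in the KM arrays, of the same age but without potassium. The terpene synthase gene LOC_Os04g27430 had the same order, with 7.22, 5.95 and 7.27 in KP, 2.41, 2.36 and 2.37 in 0h (4.43 ± 0.50) and 2.48 on average in KM. Both genes were near background in every 0h array, so their folds are set by the background level. The DnaJ chaperone gene LOC_Os01g53020 read 8.41, 8.40 and 8.39 in KP and 2.88, 3.03 and 2.98 in 0h (5.44 ± 0.17), and the lipase gene LOC_Os04g56240 8.43, 8.31 and 8.30 in KP and 3.49, 3.45 and 2.77 in 0h (5.11 ± 0.22). The polyprenyl synthetase gene LOC_Os04g56230, whose number in the rice locus system is next to that of the lipase, rose by 4.76 ± 0.39. The oxidoreductase gene LOC_Os11g14910 (5.07 ± 0.36), AT5 (4.77 ± 0.18) and BBD1, which the study lists as a DNA-binding protein (4.53 ± 0.14), complete this group with OC-I. The DnaJ, lipase and oxidoreductase genes were also near background in every 0h array, so the same limit holds for their folds. OC-I, oryzacystatin, inhibits cysteine proteases, and it read 12.14, 12.05 and 11.93 in KP and 7.11, 7.18 and 8.38 in 0h (4.48 ± 0.28). Another probe set of the gene was near background in both groups (means of 2.74 in KP and 2.76 in 0h).

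Of 15 defence proteins 10 were higher and 1 lower, with a median of 1.79. Their median span is 1360 bases, in the range of the shortest bright genes, of which 25.2% were higher. PBZ1, a pathogenesis-related protein of the PR10 family, read 13.76, 13.03 and 13.02 in KP and 9.05, 9.20 and 9.60 in 0h (3.99 ± 0.30). Most of the others were chitinases, which cut fungal cell walls. CHT11 read 8.70, 7.84 and 8.14 in KP and 4.28, 4.35 and 4.52 in 0h (3.85 ± 0.30), and CH16 rose by 2.08 ± 0.13. CEBIP, the receptor that binds chitin fragments, was lower, with 8.44, 9.01 and 8.47 in KP and 10.46, 10.46 and 10.39 in 0h (-1.80 ± 0.13). Of 18 genes of diterpenoid phytoalexins, the antimicrobial terpenes of rice, 4 were higher and none lower. CYP99A3, a P450 of momilactone synthesis, read 9.36, 9.63 and 8.62 in KP and 4.42, 5.25 and 5.54 in 0h (4.13 ± 0.41). CYP71Z6 rose by 1.61 ± 0.22. The calls of CPS4 (1.89 ± 0.58) and CYP71Z7 (1.54 ± 0.44) were lost without KP array 1 or 2 or 0h array 1 or 2, with changes of 1.56 and 1.30 at the least.

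Some genes of uptake and transport were higher in KP, and most were not called. Of 8 root markers 4 were higher, all of them transporters or channels (LSI1, LSI2, PIP2;5 and AMT1;2), and the summed intensity of the 8 was 3617 to 6212 in the KP arrays and 599 to 721 in the 0h arrays. LSI1, the brightest of the 8 in both groups, weighs most in these sums. The other 4 were not called and had negative changes. SCR1 and SHR1, regulators of root cell identity, were at -0.93 ± 0.16 (adjusted p = 0.00146) and -0.44 ± 0.17, with every KP array below every 0h array, and QHB (-0.20), which marks the root's organizing centre, and IRT1 (-0.28), an iron transporter, were near background in both groups. The sum over 5 leaf and shoot markers was 37520 to 41541 in KP and 34149 to 35366 in 0h, with none called. The part of root share in the transport results was not tested.

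Of 28 potassium transport genes 5 were higher, none lower and 23 not called (median -0.01). HAK27 read 6.82, 6.38 and 6.32 in KP and 2.48, 2.47 and 2.57 in 0h (4.0 ± 0.16), near background in all 3 0h arrays. HAK17 read 9.12, 8.00 and 8.42 in KP and 5.51, 5.70 and 6.13 in 0h (2.74 ± 0.28). HAK16 read 7.34, 7.50 and 7.87 in KP and 4.73, 5.00 and 5.38 in 0h (2.53 ± 0.24). All 3 were called without overlap of arrays, and HAK11 rose by 1.2 ± 0.12. Of the 31 CIPK and CBL genes, kinases and calcium sensors that act on ion channels, 9 were higher and 3 lower. CIPK10 had nearly identical values within each group, 8.14, 8.16 and 8.13 in KP and 3.65, 3.59 and 3.56 in 0h (4.55 ± 0.09, adjusted p = 1.9e-08), and averaged 8.15 in KM. CIPK5 read 7.14, 7.11 and 8.03 in KP and 3.01, 3.48 and 2.78 in 0h (4.33 ± 0.29). Both CIPK10 and CIPK5 were under log2 4 in every 0h array. CIPK23, which activates the potassium channel AKT1, read 10.54, 10.71 and 10.91 in KP and 7.66, 7.68 and 8.46 in 0h (2.79 ± 0.19). Its other probe set, also bright (means of 8.03 in KP and 8.74 in 0h), was at -0.71 ± 0.05, under 2-fold, so its direction is uncertain. CIPK6 fell by 1.09 ± 0.07, a call that was lost with the controls equal (-0.67).

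Of 47 iron and metal transport genes 16 were higher and 1 was lower (median 0.16), while 13 of the 47 were near background on all arrays. ZIP8, a zinc transporter family member, read 7.70, 7.20 and 7.02 in KP and 3.08, 3.06 and 3.13 in 0h (4.22 ± 0.19). Its 0h arrays were all near background. YSL13, of the family that carries metal complexes, read 7.85, 7.55 and 7.71 in KP and 4.42, 4.67 and 4.45 in 0h (3.19 ± 0.14). HMA5, a copper-transporting ATPase, rose by 1.70 ± 0.06 and YSL6 by 1.52 ± 0.06. None of the 4 had overlapping arrays. LSI1, the channel that lets silicon into the root, read 11.36, 11.22 and 12.02 in KP and 8.50, 8.67 and 8.32 in 0h (3.03 ± 0.19). LSI2, which moves silicon out of the cell toward the xylem, read 8.84, 8.63 and 10.05 in KP and 5.28, 5.15 and 5.61 in 0h (3.83 ± 0.35). Both are also root markers.

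Among 25 aquaporins 10 were higher and 1 lower (median 0.42). Their median span of 1732 bases is also in the range of the shortest bright genes, of which 25.2% were higher. PIP2;7, a plasma membrane water channel, read 12.14, 12.23 and 11.99 in KP and 10.13, 10.11 and 9.29 in 0h (2.28 ± 0.20), and TIP4;1 of the vacuole membrane rose by 2.04 ± 0.13. NIP1-1 fell by 1.08 ± 0.10 and lost the call without 0h array 1 or with the controls equal (-0.65). The Casparian strip family, membrane proteins related to those that place the wall barrier of the root endodermis, had 10 of 22 higher and none lower (median 0.74). CASPL1D1 read 8.43, 8.40 and 9.05 in KP and 4.30, 4.60 and 5.33 in 0h (3.88 ± 0.27), and CASPL2D1 11.29, 11.21 and 11.08 in KP and 9.50, 9.36 and 9.43 in 0h (1.76 ± 0.06). CASPL1U2 rose by 3.09 ± 0.22 against 0h arrays at 2.16 to 2.35, near background.

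Of 23 genes of nitrogen and phosphate transport 7 were higher and 1 lower (median 0.05). The ammonium transporter AMT1;2 read 5.54, 5.52 and 6.04 in KP and 2.90, 3.26 and 3.16 in 0h (2.60 ± 0.18), with every 0h array near background. AMT3-2 rose by 1.81 ± 0.20. PHT1;1, a phosphate transporter, rose by 1.86 ± 0.20 on 1 probe set, while another probe set of the gene gave -2.69, so its direction is uncertain. Of 9 nitrogen assimilation genes 2 were higher. NIA1, a nitrate reductase, read 12.62, 12.77 and 12.48 in KP and 10.03, 10.15 and 9.91 in 0h (2.59 ± 0.12) and averaged 10.64 in KM. GLN1-1, a cytosolic glutamine synthetase, read 11.14, 11.15 and 11.25 in KP and 9.54, 9.37 and 9.80 in 0h (1.61 ± 0.14). Of 8 phosphate sensing genes PHR3, a transcription factor of the phosphate starvation response, was the 1 called, with a rise of 2.74 ± 0.24.

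**Figure D5:**
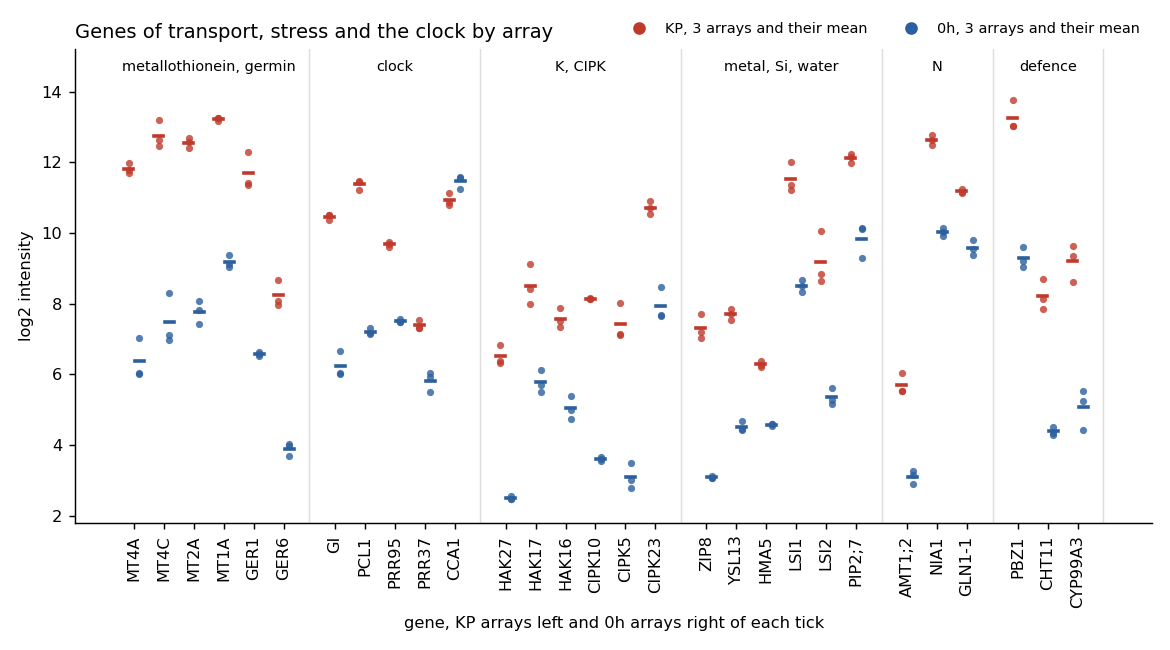
Log2 intensity in the 3 KP arrays (red, left of each tick) and the 3 0h arrays (blue, right), with short lines at the means, for metallothioneins, germin-like proteins, clock genes, potassium transporters and CIPK kinases, other transporters, nitrogen genes and defence genes. Every gene except CCA1 is higher in KP without overlap, for example CIPK10 at 8.13 to 8.16 in KP and 3.56 to 3.65 in 0h. The other bright probe set of CIPK23, not drawn, was at -0.71.

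Of 11 light harvesting and photosystem genes 3 were higher and none lower, and all but RBCS1, which was at background on every array, were well above background in all 6 arrays. Their median span is 1348 bases, in the range of the shortest bright genes, of which 25.2% were higher. CAB2R, a chlorophyll-binding antenna protein, read 14.16, 14.24 and 14.28 in KP and 14.11, 14.09 and 14.11 in 0h (0.13 ± 0.03), and RBCS, the small subunit of Rubisco, read 13.26, 13.55 and 13.57 in KP and 13.21, 13.38 and 13.23 in 0h (0.19 ± 0.08). On these probe sets the groups differ by little, and those of RBCS overlap, but other probe sets of RBCS were higher at 1.23 ± 0.08 (means of 9.93 in KP and 8.69 in 0h) and 1.13 ± 0.22 (12.08 in KP and 10.95 in 0h). RCA, the activase of Rubisco, was higher with 13.78, 13.84 and 13.69 in KP and 12.72, 12.69 and 12.37 in 0h (1.17 ± 0.11). Its other probe sets, all of them bright, gave 3.05 (higher), 0.50 and 0.16 (not called), and these do not agree on the size of the difference. LFNR1, of the last step of electron transport, rose by 1.46 ± 0.12. PSAG, a subunit of photosystem I, rose by 1.36 ± 0.15, and PSAH (0.89 ± 0.13), PETE (plastocyanin, 0.23 ± 0.04) and LHCP (0.44 ± 0.07) were not called.

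Of 39 genes that build the chloroplast 10 were lower and 1 was higher (median -0.27, which became 0.16 with 4 lower and 6 higher when the controls were equal). GYRA, a subunit of the gyrase that untwists organelle DNA, read 5.83, 6.20 and 6.00 in KP and 8.50, 8.46 and 8.42 in 0h (-2.45 ± 0.18), and its partner GYRB changed by -1.71 ± 0.06. TOC75, the channel for protein import, read 8.19, 8.55 and 8.54 in KP and 10.26, 10.34 and 10.41 in 0h (-1.91 ± 0.11). Of 15 chlorophyll and carotenoid genes 4 were lower and 2 higher (median -0.33, and 0.10 with 2 lower and 2 higher when the controls were equal). PORA, which makes chlorophyllide in light and is a gene of greening seedlings, read 8.45, 8.52 and 8.29 in KP and 10.08, 10.10 and 9.45 in 0h (-1.46 ± 0.17). PSY3, a phytoene synthase, fell by 1.72 ± 0.14, and NYC1, which starts chlorophyll b breakdown, was higher by 1.61 ± 0.07.

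Of 7 circadian clock genes 4 were higher and none lower. GI, an evening gene, read 10.36, 10.52 and 10.52 in KP and 6.00, 6.03 and 6.66 in 0h (4.23 ± 0.16). PCL1, an evening repressor, read 11.23, 11.45 and 11.48 in KP and 7.14, 7.31 and 7.16 in 0h (4.18 ± 0.09). PRR95, of the day, read 9.76, 9.60 and 9.69 in KP and 7.57, 7.48 and 7.48 in 0h (2.17 ± 0.05), and PRR37 rose by 1.57 ± 0.17, with a dimmer probe set at 0.55 and not called. The 3 genes with full values had replicates within 0.7 of each other and no overlap. CCA1, the morning gene, read 10.89, 11.12 and 10.80 in KP and 11.59, 11.57 and 11.24 in 0h and was not called (-0.53 ± 0.18, adjusted p = 0.0544), and PRR73 (0.94 ± 0.11) and PRR1 (0.42 ± 0.08) were not called either, though a dimmer probe set of PRR73 was higher (2.52 ± 0.30). The hours of harvest are not given in the sources used here, and the part of the hour in these changes was not tested.

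Sugar genes were split. Of 43 sucrose metabolism genes 6 were higher and 6 lower. UGE-3, a UDP-glucose epimerase, read 7.65, 7.69 and 7.42 in KP and 4.43, 4.80 and 4.53 in 0h (3.00 ± 0.14), and the sucrose synthases SUS2 (1.55 ± 0.07) and SUS4 (2.00 ± 0.14) rose. TPP2 (LOC4349333), a trehalose phosphatase, fell by 2.01 ± 0.12. Among 18 sugar transporters 2 were higher and 3 lower (11.1% and 16.7%). SWEET15 had the next to largest fall of all named genes, with 5.45, 5.10 and 5.48 in KP and 9.40, 9.44 and 7.70 in 0h (-3.50 ± 0.40). SWEET11 read 8.02, 7.67 and 8.25 in KP and 9.76, 9.85 and 10.11 in 0h (-1.92 ± 0.15). Both are sugar efflux carriers that supply the filling grain in rice. SWEET1B rose by 2.15 ± 0.23.

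Of 6 endosperm markers none was called and 4 were under log2 4 in both groups. The other 2 were SBE1, a starch branching enzyme (means of 9.08 in KP and 9.48 in 0h), and GLUA-2, a glutelin (6.93 in KP and 6.02 in 0h). The summed intensity of the 6 was 636 to 722 in KP and 766 to 858 in 0h. The sum over 4 embryo and aleurone markers, none called, was 357 to 2432 in KP and 637 to 3120 in 0h, with LEA3 at 7.60 ± 0.83 in KP and 8.95 ± 1.38 in 0h. RAMY1A in KP array 1 makes up most of the highest KP sum. Of 15 seed and embryo proteins 3 were lower, none was higher and 7 were near background on all arrays. Emp1 (-1.59 ± 0.14) and rab25 (-1.59 ± 0.12), both of the late embryogenesis class, were lower near background. RAMY1A, the main starch-digesting amylase of the germinating grain, read 10.99, 3.49 and 2.54 in KP and 2.26, 2.22 and 2.58 in 0h, so that KP array 1 alone was high, and it averaged 13.36 in KM (KP against 0h 3.32 ± 1.81, adjusted p = 0.28).

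Array 3 of the 0h group stood apart from the other 0h arrays in several stress genes. NSHB2, a hemoglobin raised by low oxygen, read 7.26, 7.46 and 5.99 in KP and 3.53, 3.39 and 7.36 in 0h (2.14 ± 0.99, adjusted p = 0.181). ADH2, an alcohol dehydrogenase of fermentation, read 9.04, 9.28 and 8.52 in KP and 6.89, 7.73 and 9.24 in 0h (0.99 ± 0.54). Without that array NSHB2 was called higher at 3.44 and ADH2 at 1.64. RAB21, a dehydrin, read 7.77, 9.47 and 7.84 in KP and 11.12, 10.76 and 8.84 in 0h (-1.88 ± 0.77) and was called lower without that array (-2.58). The KP and 0h arrays of all 3 genes overlapped. None of the 6 low oxygen genes was called over the 12 arrays.

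The 15 largest falls among named genes came from a range of functions. The gene annotated as dehydration stress-induced, LOC_Os10g21670, read 2.50, 2.66 and 3.11 in KP and 6.80, 6.94 and 9.61 in 0h (-5.03 ± 0.74), and its KM arrays averaged 7.08. All 3 KP arrays were near background, which sets the size of this fall, and it ran from -5.52 to -4.11 with 1 array left out. PM19L1 read 4.76, 7.17 and 5.91 in KP and 9.23, 9.16 and 7.41 in 0h (-2.65 ± 0.70, adjusted p = 0.018), a call that was lost without KP array 1 (-2.06) or 3 (-2.64) and without 0h array 1 (-2.34) or 2 (-2.38). PMEI8, an inhibitor of pectin methylesterase, read 5.87, 7.06 and 6.86 in KP and 10.07, 9.78 and 8.51 in 0h (-2.86 ± 0.50). BRXL2, of the Brevis radix family of growth regulators, read 4.89, 4.99 and 4.76 in KP and 7.80, 7.87 and 8.46 in 0h (-3.16 ± 0.22). HMG3 read 7.90, 7.97 and 8.19 in KP and 10.84, 10.90 and 11.02 in 0h (-2.90 ± 0.11). That the KP arrays all lay below the 0h arrays in these genes follows from the rule that chose them. The maturase K gene LOC_Os04g16734 (-3.16 ± 0.32), BURP12 (-2.72 ± 0.14), IMCEL2 (-2.71 ± 0.16) and the calcium ATPase gene ACA7 (-2.57 ± 0.47) complete the 15 with genes given above and P5CS2. P5CS2, an enzyme of proline synthesis, fell by 2.69 ± 0.21 on its brightest probe set, while another probe set of the gene was higher by 1.33.

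Among transcription factors few families leaned one way. Of 31 MADS factors 3 were higher and 1 lower, and 17 were near background on all arrays. MADS56 read 9.79, 9.83 and 9.76 in KP and 7.79, 7.73 and 7.24 in 0h (2.2 ± 0.14), and MADS50, a promoter of flowering, rose by 2.00 ± 0.14 and MADS27 by 2.57 ± 0.26. Of 7 flower and pollen markers 4 were under log2 4 in both groups. Only MADS58 was called, lower at -1.49 ± 0.35 and not by the methods' t-test. MADS16 (0.86 ± 0.08) and MADS2 (0.52 ± 0.09) changed the other way, under 2-fold and without overlap of arrays. The summed intensity of the 7 was 562 to 620 in KP and 406 to 459 in 0h. Of 47 homeobox factors 4 were higher and 6 lower, among them HOX1 at 9.11, 8.80 and 8.78 in KP and 6.25, 6.62 and 6.38 in 0h (2.48 ± 0.13) and GL2-5 at -1.56 ± 0.10. Of 20 heat stress factors 3 were higher and 1 lower, with HSFA2D at 10.81, 10.77 and 10.68 in KP and 8.77, 8.59 and 8.67 in 0h (2.08 ± 0.07) and HSF03 at 2.77 ± 0.14. Heat shock proteins, which such factors switch on, had 2 higher and 4 lower of 25 (median -0.29, and 0.14 with the controls equal). HSP17.9B rose by 2.08 ± 0.15 and HSP26.2 fell by 1.45 ± 0.18. Of 8 NAC factors 2 were higher and 1 lower, and NAC067 read 12.51, 12.64 and 12.15 in KP and 10.72, 10.48 and 10.60 in 0h (1.83 ± 0.12). Of 11 DREB and ERF factors 3 were higher and 1 lower. DREB1B, of the cold response, read 11.25, 11.29 and 10.30 in KP and 9.45, 9.19 and 8.54 in 0h (1.89 ± 0.45, adjusted p = 0.011), and the methods' t-test did not call it.

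Antioxidant genes and glycosidases had rises and falls. Of 55 genes of glutathione and antioxidant systems 11 were higher and 6 lower. RPP13-1, a thioredoxin of the phloem sap in rice, read 12.35, 12.47 and 12.42 in KP and 9.73, 9.56 and 9.38 in 0h (2.86 ± 0.08). Another probe set of the gene was near background in both groups (means of 2.61 in KP and 2.63 in 0h). GRXS4, a glutaredoxin, fell by 1.41 ± 0.08, and this call was lost with the controls equal (-0.98) and on a dimmer probe set (-0.82). Of 27 beta-glucosidases 8 were higher and 3 lower. BGLU22 read 9.54, 9.33 and 9.43 in KP and 6.73, 7.10 and 6.44 in 0h (2.67 ± 0.15), and BGLU8 read 8.05, 7.95 and 8.08 in KP and 9.75, 9.62 and 9.53 in 0h (-1.61 ± 0.06). Of 48 calcium sensors and kinases 5 were higher and 5 lower (10.4% each, under the shares over all named genes). CML8 rose by 2.05 ± 0.12 and CML4 by 1.81 ± 0.12. Of 7 magnesium transporters MRS2-E was the 1 called (1.59 ± 0.13).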

How the data were processed

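Signals of 12 Affymetrix rice arrays (4 groups of 3, each of whole seedlings without seeds) were used. Scans were summarised with GCOS 1.2.1 by the submitters' notes, and GCRMA in ArrayAssist was the authors' normalization. The deposited values are these intensity signals on a linear scale, corrected for background by probe sequence and brought to near equal distributions between arrays (medians 2.70 to 2.83 on the log2 scale), a step that can hide a shift of all genes. No value was under the floor of 1 set before log2. limma 3.58.1 in R 4.3.3 fitted 1 mean per group over the 12 arrays (8 residual degrees of freedom), and p-values for KP minus 0h were adjusted by Benjamini-Hochberg over 57258 probe sets. A call needs an adjusted p under 0.05 and at least 2-fold, the study's thresholds. Errors of changes are limma standard errors, and the number of arrays limits the precision. The fit was tested on simulated data.

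Genes came from the array annotation and RefSeq (22436 probe sets with 1 gene, 95 with several, 34727 with none, 3192 with a gene name), and loci from the study's category table (411 probe sets). The brightest probe set stands for a gene, and lists hold no probe set with several genes. Members and lists were chosen with earlier results of these data known. Genes named are the 15 largest rises and falls whose arrays do not overlap, the 4 members (or fewer) of every list whose adjusted p was smallest, all DNA replication, cell cycle, clock and light harvesting genes, and cell type markers. Lists numbered 55, of which 15 were added after the values had been seen, with 55 of the 326 named probe sets through them alone. Alternatives were 6 arrays only, a replicate block, quantile and median scaling, a filter on dim probe sets, log2(value + 16), the methods' t-test, other folds, other probe sets, each array left out, and equal hybridization controls. Promoter motifs were not analysed here.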

Additional observations from a re-analysis of the deposited data

Results flagged for a closer look

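Control probe sets, which were not among the probe sets tested, differed between KP and 0h, as described above. The GAPDH control differed by 3.42 at its 5′ end (KP minus 0h, log2) and by 2.44 in the middle, and read 10.90, 10.91 and 10.59 in the KP arrays and 7.75, 7.37 and 7.03 in the 0h arrays at the 5′ end. The actin control differed by 1.56 at the 5′ end, and the ubiquitin control by 1.68 at the 5′ end and 1.83 in the middle. In each of these the 3 KP arrays lay above the 3 0h arrays. At the 3′ end the same transcripts differed by -0.14 (GAPDH), -0.94 (actin) and 0.28 (ubiquitin).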

How the results depend on the processing

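The numbers of higher and lower probe sets, 3362 and 3270, moved by more than 1.5 times in 1 direction or both under 4 settings. With the hybridization controls made equal they were 5568 and 1503, at 1.5-fold 5132 and 6235, with no fold threshold 6631 and 8653, and at 4-fold 1139 and 407. All 3362 higher calls and 1481 of the lower ones were shared with the calls under equal controls, and 20 of the 55 list medians changed sign there. With 1 array left out the numbers ran from 3270 to 3393 higher and from 3177 to 3344 lower, and the calls among list members from 391 to 423 against 406. The deviations of same-numbered KP and 0h arrays correlated at -0.06, 0.06 and -0.08, and those with different numbers at -0.15 to 0.14. These values cannot show whether same-numbered samples were grown or handled together, and the main fit did not pair them. The replicate block gave 3326 higher and 3250 lower with 401 calls among list members. The 6 arrays alone gave 3178 and 3095, quantile normalization 3356 and 3265, equal medians 3407 and 3191, the filter 3323 and 3127 of 21829 tested, log2(value + 16) 2548 and 2257, and the methods' t-test after Benjamini-Hochberg adjustment 2909 and 2890. Of the 208 named probe sets called, 160 were called under every alternative fit and 48 lost the call in at least 1. Adding 16 before log2 ended 18 of these calls, among them Emp1, rab25, HAK11, CYCD5-1 and MRS2-E. In 16 named genes another probe set had the other sign and at least 1 of the pair was called: OC-I (-0.02), P5CS2 (1.33), TIP4;1 (-0.05), CIPK23 (-0.71), CYCD5-2 (-1.10), PRX112 (-0.16), LOG (-0.02), RPP13-1 (-0.02), HOX10 (0.13), PSAG (-0.00), FNR LOC4342399 (-1.11), NAC071 (-0.16), PHT1;1 (-2.69), NIA1 (-0.00), RPN5 (1.18) and WRKY71 (2.08). The other probe sets of OC-I, TIP4;1, LOG, RPP13-1, HOX10, PSAG, NAC071 and NIA1 had means near background in both groups, under log2 4. Their signs therefore show no direction. The cause of the differences in sign was not tested. Values near the median log2 intensity of the arrays, 2.70 to 2.83, are limited by background.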
